A study of Mus musculus with 6 samples.

Results

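Transcripts of 38 genes of glycolysis and of the response to low oxygen were followed in EMT6 cells, a mouse mammary carcinoma line, that had been kept with an antibody against PD-L1. The genes were taken from a written list of glycolytic enzymes, glucose and lactate transporters, and subunits, sensors and targets of the hypoxia-inducible factors (HIF). All 38 were found among the 53465 genes of the table, under 39 identifiers because Aldoa has a second one, and each of the 38 was among the 14217 genes kept by the filter on low counts.

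The control group (P-VITRO, n = 3) was EMT6 cells kept with isotype control antibody, and the treated group (PTR-VITRO, n = 3) was EMT6 cells kept with anti-PD-L1. Both antibodies were used at 0.5 μg/ml for more than 4 weeks, in culture medium without immune cells or a host, and polyadenylated RNA was sequenced. The labels do not say whether the replicates of a group were separate cultures, and the study treats replicates as technical unless it says otherwise. The p-values therefore cover the spread between these libraries only.

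Glycolysis splits glucose into pyruvate in the cytosol. Tumor cells often run it at a high rate and turn much of the pyruvate into lactate, which monocarboxylate transporters carry out of the cell with a proton. When oxygen is low, HIF-1α and HIF-2α escape hydroxylation by prolyl hydroxylases and degradation through VHL, pair with ARNT and raise transcription of genes for glucose uptake, most glycolytic enzymes, pH control, mitophagy and collagen hydroxylation.

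HIF binds a short DNA core that reads ACGTG or, with a different first letter, GCGTG. Promoter sequences (250 bases before to 50 bases after the annotated start, RefSeq, GRCm38.p6) were given for 34 of the 38 genes, and Slc2a3, Epas1, Bnip3l and Ndrg1 had no entry. The 34 genes had 49 promoters, of which 26 (53.1%) held ACGTG on either strand, against 6447 of 32851 mouse promoters (19.6%). GCGTG was found in 27 (55.1%), against 32.4% of all promoters. One or the other core was present in 38 of the 49 (77.6%), against 43.8%. Counted by gene, 30 of 34 (88.2%) had a core in at least 1 promoter, against 46.7% of all genes. The letters CACGTG, which also form the E-box of MYC and USF proteins, hold ACGTG on both strands and were counted on each. A match is a description of the letters and not of HIF binding, which was not measured. Printed here are the promoters of 4 genes in which 1 PTR-VITRO library stood well above the others (Bnip3, Pdk1, Egln3 and Ankrd37) and of the 2 genes whose groups did not overlap (Slc16a1 and Hk2). They are written 5′ to 3′ on the gene's strand, with the core in capitals. The capitals read CACGT or CACGC where the core lies on the opposite strand.
Bnip3 chr7:138909457-138909756 (- strand): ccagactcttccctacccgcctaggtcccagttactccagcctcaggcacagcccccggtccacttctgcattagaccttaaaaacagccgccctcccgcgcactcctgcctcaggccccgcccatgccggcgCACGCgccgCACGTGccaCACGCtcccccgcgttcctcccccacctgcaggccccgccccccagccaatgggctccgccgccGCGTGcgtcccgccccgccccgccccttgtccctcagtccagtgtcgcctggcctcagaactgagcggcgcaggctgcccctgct
Pdk1 chr2:71872974-71873273 (+ strand): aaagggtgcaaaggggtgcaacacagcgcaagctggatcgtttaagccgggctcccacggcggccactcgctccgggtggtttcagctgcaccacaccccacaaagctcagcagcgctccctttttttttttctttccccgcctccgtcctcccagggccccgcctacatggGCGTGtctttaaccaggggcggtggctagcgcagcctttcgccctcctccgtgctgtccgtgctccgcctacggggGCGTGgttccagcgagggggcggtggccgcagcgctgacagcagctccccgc
Egln3 chr12:54203825-54204124 (- strand): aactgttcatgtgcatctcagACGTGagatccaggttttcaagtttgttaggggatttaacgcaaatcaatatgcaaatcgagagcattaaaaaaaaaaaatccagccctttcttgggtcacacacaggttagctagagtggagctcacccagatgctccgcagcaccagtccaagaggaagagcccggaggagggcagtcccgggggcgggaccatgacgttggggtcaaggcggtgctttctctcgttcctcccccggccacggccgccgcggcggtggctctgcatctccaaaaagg
Ankrd37 chr8:45999801-46000100 (- strand): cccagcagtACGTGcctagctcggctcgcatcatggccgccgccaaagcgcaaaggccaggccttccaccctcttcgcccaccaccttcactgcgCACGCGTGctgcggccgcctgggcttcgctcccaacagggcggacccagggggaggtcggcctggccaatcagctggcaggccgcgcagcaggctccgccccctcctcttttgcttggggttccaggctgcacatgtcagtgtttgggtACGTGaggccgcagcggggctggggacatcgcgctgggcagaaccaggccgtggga
Slc16a1 chr3:104638414-104638713 (+ strand): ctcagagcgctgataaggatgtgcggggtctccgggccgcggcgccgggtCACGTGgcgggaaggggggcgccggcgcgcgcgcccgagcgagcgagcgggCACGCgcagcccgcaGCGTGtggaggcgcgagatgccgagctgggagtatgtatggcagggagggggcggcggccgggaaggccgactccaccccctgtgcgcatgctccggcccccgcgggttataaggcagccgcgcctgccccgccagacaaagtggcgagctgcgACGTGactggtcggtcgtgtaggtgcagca
Hk2 chr6:82774405-82774704 (- strand): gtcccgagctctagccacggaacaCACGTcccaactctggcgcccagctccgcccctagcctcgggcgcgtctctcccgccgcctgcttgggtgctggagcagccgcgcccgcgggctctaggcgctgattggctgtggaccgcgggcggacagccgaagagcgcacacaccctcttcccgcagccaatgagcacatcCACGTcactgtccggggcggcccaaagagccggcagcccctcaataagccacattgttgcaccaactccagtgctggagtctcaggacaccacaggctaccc

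The promoter of Bnip3 held 2 matches to ACGTG and 3 to GCGTG, and that of Ankrd37 held 2 of each. The promoter of Slc16a1 held 3 and 2. The first of the Pdk1 promoters held 2 matches to GCGTG, the Hk2 promoter 2 to ACGTG, and the Egln3 promoter 1 to ACGTG. The other Pdk1 promoter, which is not printed, held 0 matches to either core.

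Total counts per library ran from 17757341 to 32426739, so that 3 counts, taken as the floor, correspond to 0.168 CPM (counts scaled to a common library size) in the shallowest and 0.0925 CPM in the deepest library. These floors cover counting error only. The carcinoma keratin Krt8 was at 1031 to 1128 CPM in P-VITRO and 1073 to 1110.0 CPM in PTR-VITRO, and the mesenchymal gene Vim at 1871 to 1916 CPM and 1841 to 1972 CPM, while Cdh1 and Cdh2 were near 0. Without overlap between the groups, Krt18 was at 479.8 to 506 CPM in P-VITRO and 523 to 568 CPM in PTR-VITRO (edgeR adjusted p 0.139), Epcam at 1.24 to 1.80 CPM and 2.15 to 2.41 CPM (0.392), and the mesenchymal gene Sparc at 1102 to 1158 CPM and 1017 to 1074 CPM (0.227). None of 7 leukocyte and none of 3 endothelial markers passed the filter, Ptprc, Cd8a and Adgre1 had a count of 0 in every library, and so did both red cell genes. The 3 fibroblast markers summed to 43.6 to 54.5 CPM in P-VITRO and 33.6 to 41.3 CPM in PTR-VITRO, with Lum at 0. Dcn was lower (-0.56 on the log2 scale, edgeR adjusted p 0.0919), while Pdgfra was not (0.10, adjusted p 0.803). The part of these marker differences in the results was not tested. In bulk RNA, fewer cells that express a gene and less RNA of it per cell cannot be told apart.

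None of the 38 genes changed between the groups by edgeR's quasi-likelihood test with Benjamini-Hochberg adjustment over all genes tested (0 of 38 with an adjusted p below 0.05, against 0.246% of all genes). Their adjusted p lay between 0.302 and 0.997. Limma-voom (0.218% of all genes called) and DESeq2 (0.781%), which gave Ankrd37 no adjusted p, also called 0 of the 38. Without the filter on low counts, edgeR called 3 of them, Bnip3, Tpi1 and Adm, beside 1.58% of all genes in that setting. The log2 fold change (log2FC) of PTR-VITRO over P-VITRO was above 0 for 26 genes and below 0 for 12, where 48.5% of all genes were above 0. The median was 0.05, beside -0.004 over all genes, and 29 of the 38 differed by less than 1.1-fold and 36 by less than 1.2-fold. Unadjusted p-values below 0.05 were found for 2 genes higher in PTR-VITRO (5.26% of all genes), Bnip3 and Pfkfb4, and for 2 lower (6.13% of all genes), Slc16a1 and Adm. Limma-voom gave the same 4 genes (11.5% of all genes), while the 4 of DESeq2 (7.16% of all genes) held Tpi1 in place of Bnip3. The 3 PTR-VITRO libraries lay above the 3 P-VITRO libraries for 0 of the 38 (8.27% of all genes) and below them for 2 (9.33% of all genes), Hk2 and Slc16a1. For unadjusted p and overlap in the edgeR fit with the filter, the shares of the 38 were near or below those of all genes.

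**Figure D1:**
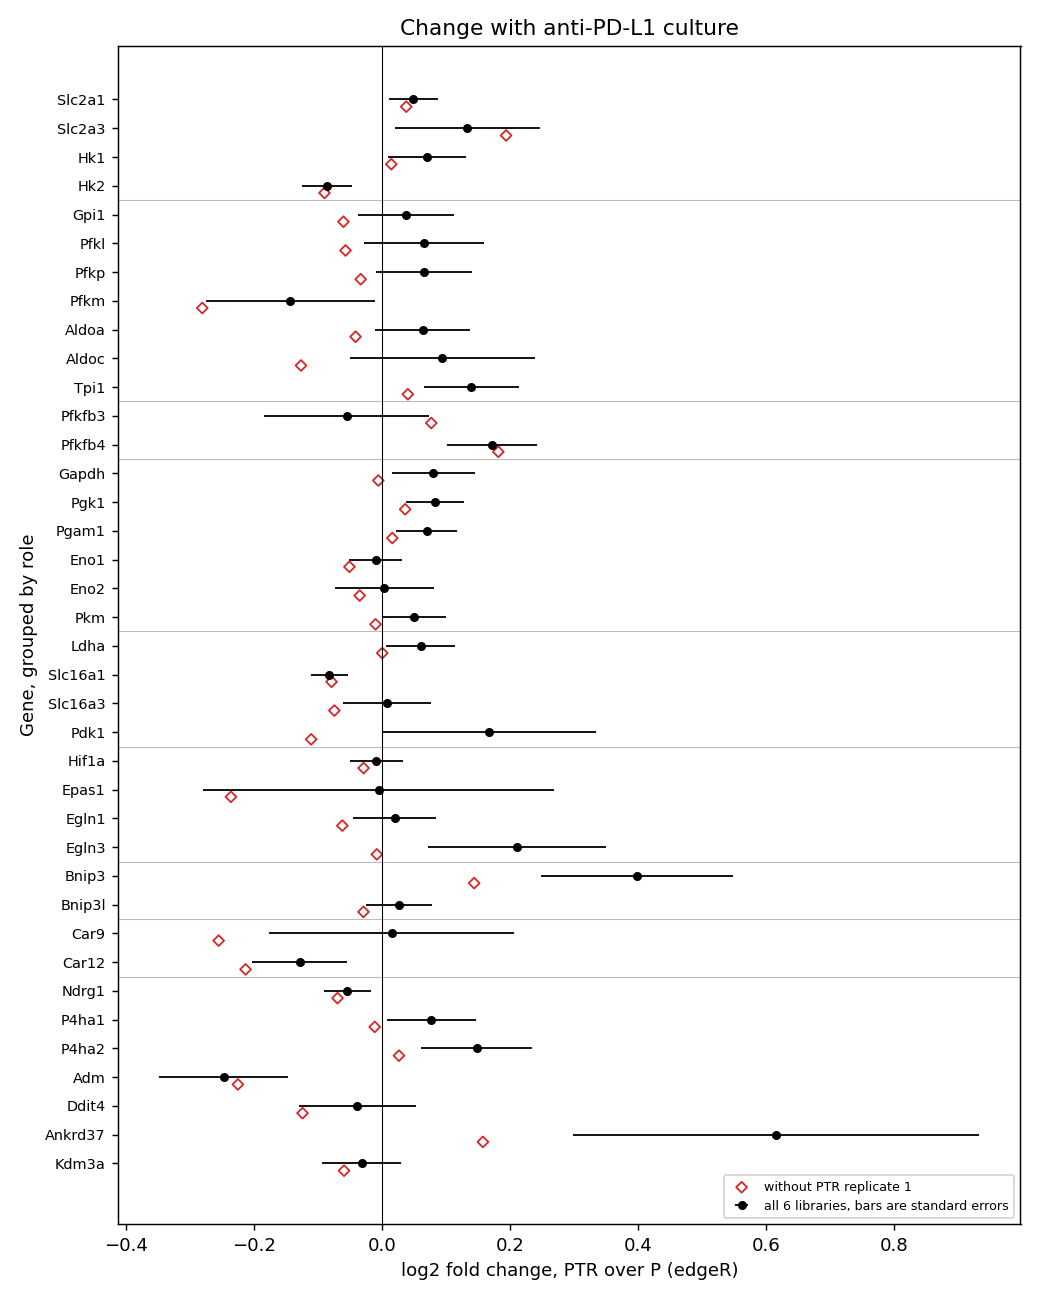
Log2 fold change of PTR-VITRO over P-VITRO for the 38 genes, grouped by role. Black points and bars are the edgeR estimate from 6 libraries with its standard error, and open red diamonds are the estimate without PTR-VITRO replicate 1, which lies below that from 6 libraries for most genes and above 0 for 12 of the 38, against 26 from 6 libraries.

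The excess of genes above 0 rested on 1 library. PTR-VITRO replicate 1 was the highest of the 6 libraries for 25 of the 38 genes, against 19.0% of all genes, and for 13 of the 16 glycolytic enzymes. Within its group it was the highest for 32 of the 38 (41.1% of all genes). In P-VITRO, replicate 1 was the highest of its group for 24 of the 38 (34.8% of all genes), and replicate 2 was the lowest for 28 of the 38 (42.1% of all genes). The SD of the CPM was larger in PTR-VITRO than in P-VITRO for 27 of the 38 (47.3% of all genes). Expressed as the log2 distance from the mean of the 6 libraries, the median of the 38 genes was 0.04, -0.09 and -0.03 in P-VITRO replicates 1, 2 and 3 and 0.14, -0.02 and -0.07 in the PTR-VITRO replicates, while the median of all genes stayed between -0.0098 and 0.0119. PTR-VITRO replicate 1 was the deepest library of its group and PTR-VITRO replicate 3, which was the lowest of the 6 for 15 genes, the shallowest. In P-VITRO the deepest library, replicate 2, was the one that was lowest of the 6 for 15 genes. The part of depth in this pattern was not tested. Without PTR-VITRO replicate 1 the median log2 fold change of the 38 genes was -0.03 and 12 of them lay above 0.

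**Figure D2:**
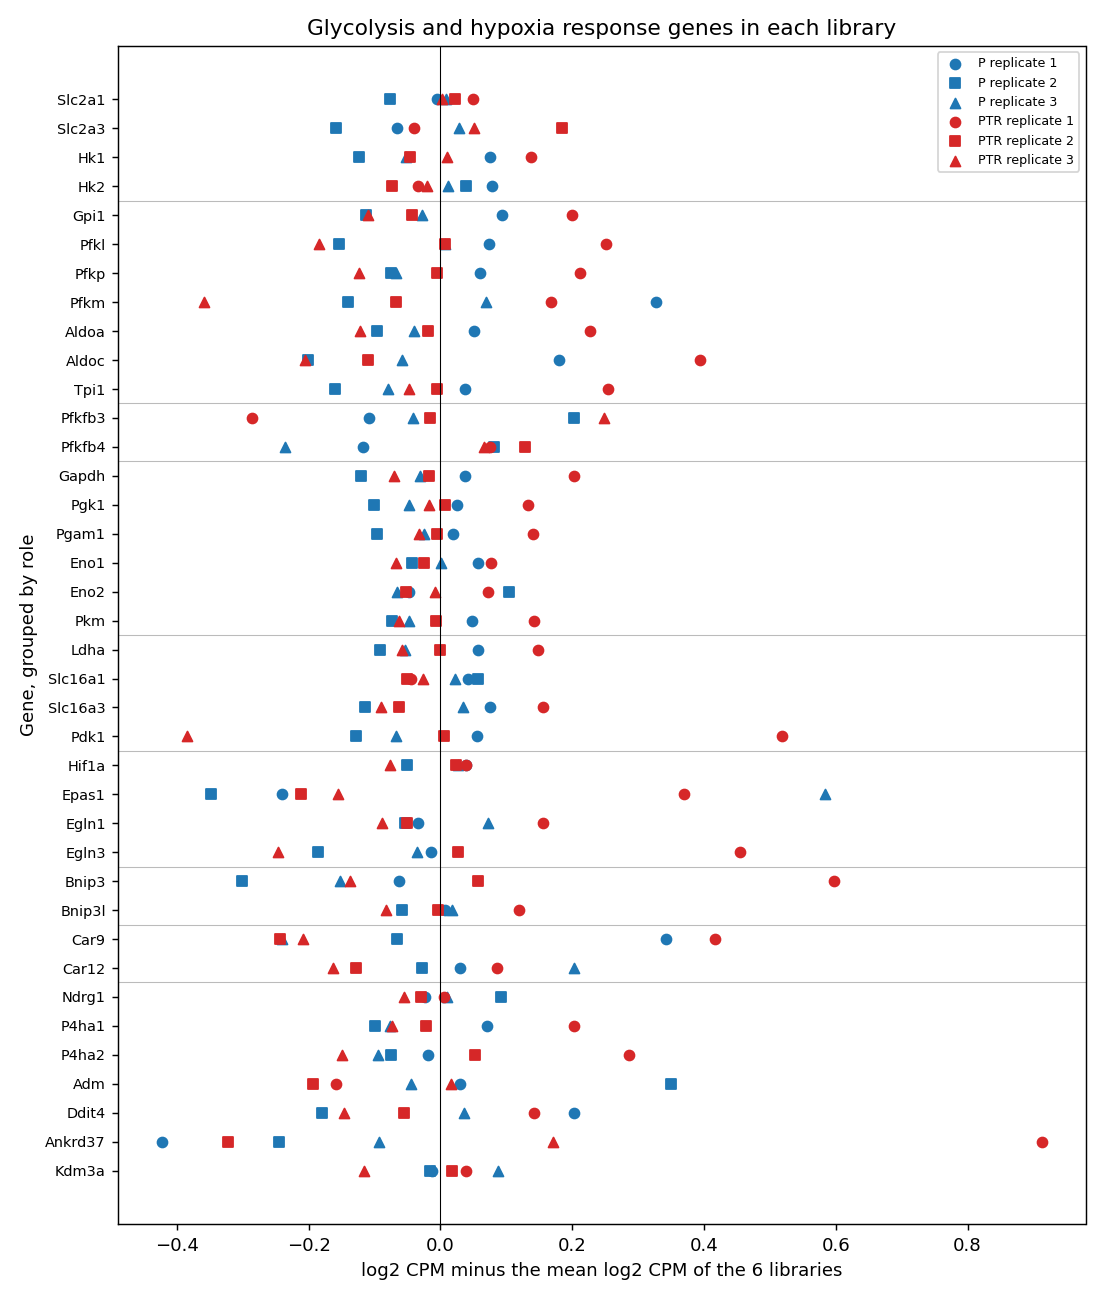
Level of each of the 38 genes in each of the 6 libraries, as log2 CPM minus the mean log2 CPM of the 6 libraries. PTR-VITRO replicate 1 (red circles) lies farthest to the right for 25 of the 38 genes, with Ankrd37, Bnip3, Pdk1 and Egln3 among the widest gaps.

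Measured per kilobase of exon, for a rough comparison between genes, the levels covered a wide range. Exon length was the union of all annotated exons of a gene, and counts of near-identical copies were left out. The order of genes with close levels can depend on both. Pgk1 (phosphoglycerate kinase) was at 479.5 ± 21.0 CPM per kb in P-VITRO and 508 ± 28.7 in PTR-VITRO (SD, n = 3). Pkm and Pgam1 followed at 457 ± 20.4 and 433 ± 17.4 CPM per kb in P-VITRO, where the spread of Pkm overlaps that of Pgk1 and of Pgam1 while those of Pgk1 and Pgam1 do not overlap. At the low end stood Epas1, which encodes HIF-2α, at 0.397 ± 0.150 CPM per kb in P-VITRO and 0.387 ± 0.0904 in PTR-VITRO, with Ankrd37 and Slc2a3 next. Differences between the groups were small beside those between genes.

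**Figure D3:**
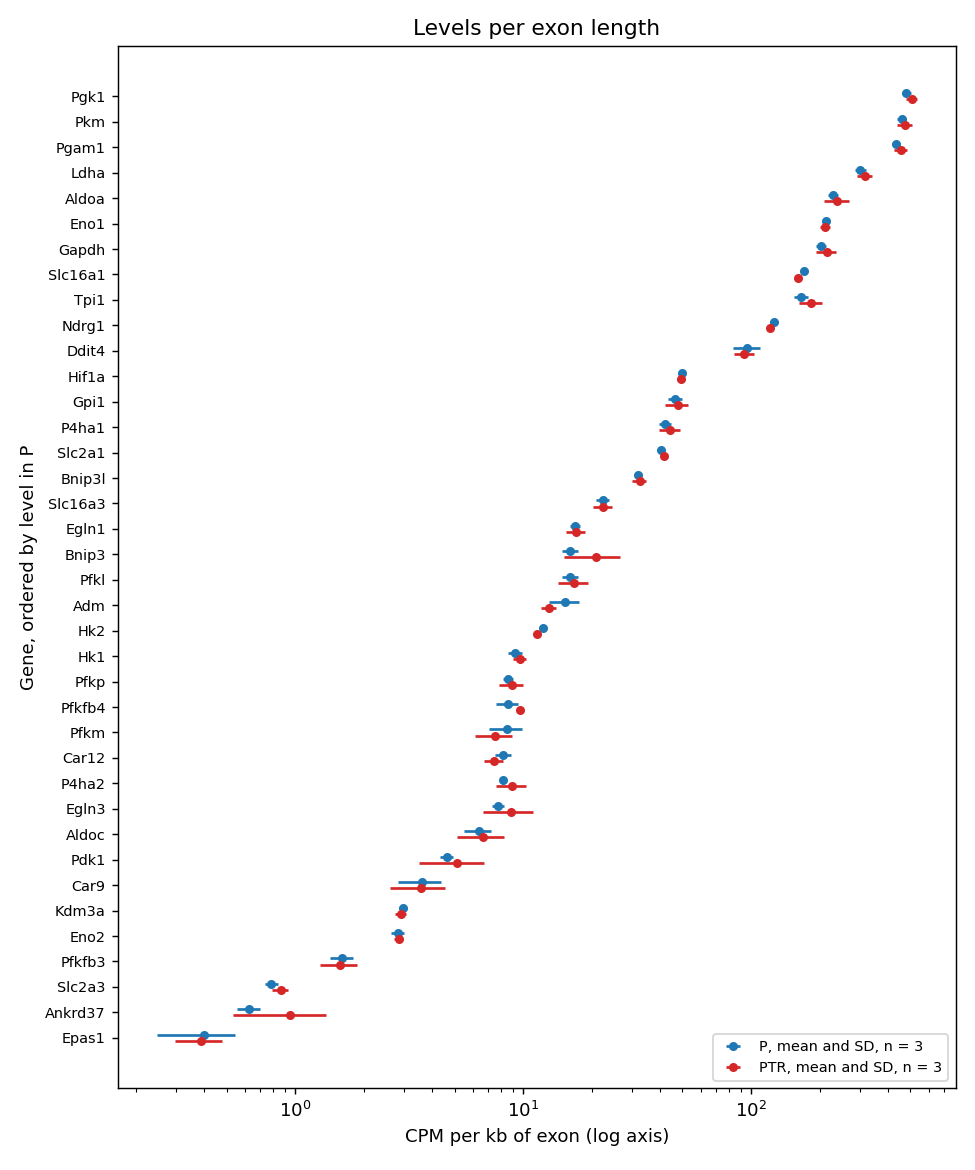
Level of the 38 genes per kilobase of exon on a log axis, ordered by the P-VITRO mean, with mean and SD over 3 libraries for P-VITRO (blue) and PTR-VITRO (red). The levels run from 0.397 CPM per kb for Epas1 to 479.5 for Pgk1, and the group means differ by less than 1.2-fold except for Ankrd37 and Bnip3.

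Slc2a1 (ENSMUSG00000028645.11, chr4:119108711-119137983) encodes GLUT1, the widespread glucose transporter of growing cells. It had 143, 136 and 144 CPM in P-VITRO and 148, 145 and 144 CPM in PTR-VITRO. The groups overlapped near 144 CPM, and the log2FC was 0.05 (SE 0.04, edgeR adjusted p 0.669). The high-affinity transporter Slc2a3 was low, at 5.34 to 6.08 CPM in P-VITRO and 5.80 to 6.78 CPM in PTR-VITRO (log2FC 0.13, adjusted p 0.698). Its share of both transporters per exon length was 1.92 ± 0.0711% and 2.03 ± 0.173% (two-sided exact permutation p = 0.4, n = 3 per group).

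Hexokinases trap glucose as glucose 6-phosphate, and Hk2 (ENSMUSG00000000628.10, chr6:82725025-82774454) is the form that HIF and MYC induce. Hk2 had 74.8, 72.7 and 71.4 CPM in P-VITRO and 69.2, 67.3 and 69.9 CPM in PTR-VITRO. All 3 PTR-VITRO values lay below all 3 P-VITRO values, by a small margin. Its log2FC was -0.09 (SE 0.04, edgeR unadjusted p 0.0543, adjusted p 0.445). Hk1, the constitutive form, had a log2FC of 0.07 (adjusted p 0.704), with 0.01 when PTR-VITRO replicate 1 was left out and 0.13 when P-VITRO replicate 1 was. Per exon length, Hk2 made up 55.8%, 58.5% and 56.8% of both hexokinases in P-VITRO and 52.8%, 55.3% and 55.2% in PTR-VITRO. These shares did not overlap either, and their difference of -2.60 percentage points had a two-sided exact permutation p of 0.1, the smallest that 3 against 3 libraries allow (adjusted p 0.333 over 10 isozyme shares).

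The enzymes of upper glycolysis, from glucose 6-phosphate to the triose phosphates, had log2FC values between -0.14 (Pfkm) and 0.14 (Tpi1), and 6 of the 7 lay above 0. Tpi1, triose phosphate isomerase, had 491, 428 and 453 CPM in P-VITRO and 570.4, 476 and 463 CPM in PTR-VITRO (SE 0.07, edgeR adjusted p 0.515). The PTR-VITRO libraries other than replicate 1 lay within the P-VITRO range, and without that replicate the value was 0.04. Aldoa, the main aldolase, had 703, 635 and 659.9 CPM against 794, 669.7 and 623 CPM, so that PTR-VITRO held both the highest and the lowest library (log2FC 0.06, adjusted p 0.795, and -0.04 without PTR-VITRO replicate 1). Its second identifier held 0.347% of the Aldoa counts and had a log2FC of -0.43 (adjusted p 0.440). Aldoc, which is induced by HIF, ranged from 18.4 to 23.9 CPM in P-VITRO and from 18.3 to 27.7 CPM in PTR-VITRO, and its log2FC of 0.09 became -0.13 without PTR-VITRO replicate 1. Gpi1, glucose phosphate isomerase, differed by 0.04 (adjusted p 0.894), or -0.06 without that library.

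Phosphofructokinase commits sugar to glycolysis and is built from liver, muscle and platelet type subunits. The liver type Pfkl had 114, 97.7 and 109 CPM in P-VITRO and 129.5, 109 and 95.7 CPM in PTR-VITRO, and the muscle type Pfkm had 33.1, 24.0 and 27.7 CPM against 29.7, 25.2 and 20.6 CPM. Neither gene separated the groups by its own level (adjusted p 0.842 and 0.724), and without PTR-VITRO replicate 1 the log2FC of Pfkl moved from 0.07 to -0.06. That of Pfkm was -0.14, with -0.28 when PTR-VITRO replicate 1 was left out, -0.03 when PTR-VITRO replicate 3 was and -0.01 when P-VITRO replicate 1 was. Per exon length Pfkl gave 48.5 ± 1.11% of the 3 subunits in P-VITRO and 50.3 ± 0.166% in PTR-VITRO, and Pfkm 25.5 ± 1.82% and 22.6 ± 0.870%. Both shares were without overlap between the groups, at the smallest possible exact permutation p of 0.1 (n = 3 per group, adjusted p 0.333 over the 10 shares), and the shares of a family are not independent of each other. As shares of counts without division by length, the difference was 0.627 percentage points for Pfkl (exact permutation p = 0.5, n = 3 per group), against 1.79 per length, and -1.47 for Pfkm (p = 0.1), against -2.84. With 1 library left out the per-length difference of Pfkm ran from -3.66 (P-VITRO replicate 2) to -1.86 (P-VITRO replicate 1). The platelet type Pfkp gave 26.0 ± 1.34% and 27.1 ± 0.929% (exact permutation p = 0.3, n = 3 per group). The order of the subunits depends on the division by exon length, which is longest for Pfkp. In CPM without it, Pfkp averaged 115 and Pfkl 107 in P-VITRO, and 120 and 112 in PTR-VITRO. Pfkp overlaps Pitrm1 on the opposite strand over 748 bases, and whether reads were assigned by strand is not stated in the sources used here.

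The bifunctional enzymes that make and remove fructose 2,6-bisphosphate, an activator of phosphofructokinase, are encoded by Pfkfb3 and Pfkfb4. Pfkfb4 (ENSMUSG00000025648.17, chr9:108991778-109032228) had 40.7, 46.7 and 37.5 CPM in P-VITRO and 46.5, 48.3 and 46.2 CPM in PTR-VITRO. P-VITRO replicate 2 lay inside the PTR-VITRO range and the other two below it. The log2FC was 0.17 (SE 0.07, edgeR unadjusted p 0.0329, adjusted p 0.384) and was 0.18 without PTR-VITRO replicate 1. It depended on the P-VITRO libraries, at 0.27 without replicate 2 (adjusted p 0.0678) and 0.10 without replicate 3 (adjusted p 0.681). Pfkfb3 had 11.1, 13.8 and 11.6 CPM against 9.81, 11.8 and 14.2 CPM (log2FC -0.05, adjusted p 0.916), and PTR-VITRO replicate 1 was here the lowest of the 6 libraries.

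In lower glycolysis, which yields ATP and pyruvate, the 6 enzymes had log2FC values between -0.01 (Eno1) and 0.08 (Pgk1), with adjusted p from 0.531 to 0.992. Pgk1 had 1126, 1032 and 1070.3 CPM in P-VITRO and 1213, 1112 and 1093 CPM in PTR-VITRO, and without PTR-VITRO replicate 1 its log2FC was 0.04. That of Pgam1, phosphoglycerate mutase, was 0.07, or 0.02 without that library. Pkm, pyruvate kinase, had 2400.1, 2207 and 2247 CPM against 2561, 2312 and 2223 CPM. In both genes PTR-VITRO replicate 1 was the highest library and the groups overlapped. Gapdh had 882, 790.3 and 841 CPM against 989, 849 and 818 CPM (log2FC 0.08, adjusted p 0.684, and -0.0054 without PTR-VITRO replicate 1). Several of these genes have near-identical copies that can share reads. The copies held 25.7% of the Gapdh family's counts, 22.3% of the Pgk1 family's and 51.0% of the Eno1 family's. Summed with their copies, the log2FC values were 0.07 for Gapdh, 0.07 for Pgk1 and 0.01 for Eno1. The last differs in sign from Eno1 alone, and both values are close to 0.

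The 16 enzymes from hexokinase to lactate dehydrogenase together gave 9520.1, 8662.7 and 8979.0 CPM in P-VITRO and 10262.4, 9149.8 and 8827.3 CPM in PTR-VITRO, or 0.866% to 1.03% of a library. The sum was highest in PTR-VITRO replicate 1 and lowest in P-VITRO replicate 2, and the other PTR-VITRO libraries lay within the P-VITRO range. The group means were 9053.9 ± 434 and 9413.2 ± 753 CPM, a log2 ratio of 0.06, and the difference of the means is smaller than the SD of either group.

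Pyruvate is reduced to lactate by lactate dehydrogenase A. Ldha had 1058, 954 and 980.3 CPM in P-VITRO and 1127, 1017 and 977 CPM in PTR-VITRO (log2FC 0.06, adjusted p 0.710). Leaving out PTR-VITRO replicate 1 brought its log2FC to 0.0008. Ldhb, its partner gene, had a count of 0 in all 6 libraries, which allows at most 0.168 CPM in the shallowest. Pdk1, the kinase that holds pyruvate dehydrogenase inactive, had 38.7, 34.1 and 35.5 CPM against 53.4, 37.4 and 28.5 CPM. PTR-VITRO held the highest and the lowest library, with a coefficient of variation of 31.7% against 6.55% in P-VITRO. The log2FC of 0.17 (SE 0.17, adjusted p 0.749) became -0.11 without PTR-VITRO replicate 1.

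Of the transporters that export lactate, MCT1 gave groups that did not overlap. Slc16a1 (ENSMUSG00000032902.1, chr3:104638668-104658462) encodes this protein, which moves lactate in either direction, and had 756, 764 and 746 CPM in P-VITRO and 712, 709 and 721 CPM in PTR-VITRO. All PTR-VITRO libraries lay below all P-VITRO libraries, and the spread within each group was narrow. This gave a log2FC of -0.08 (SE 0.03, edgeR unadjusted p 0.0166, adjusted p 0.302), the smallest p of the 38 genes, and it lay between -0.09 and -0.07 when any 1 library was left out. Slc16a3, which encodes the HIF-induced exporter MCT4, had 125, 109.9 and 122 CPM against 133, 114 and 112 CPM (log2FC 0.01, adjusted p 0.974). Per exon length it gave 11.6 ± 0.787% and 12.2 ± 1.06% of both transporters (two-sided exact permutation p = 0.6, n = 3 per group).

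**Figure D4:**
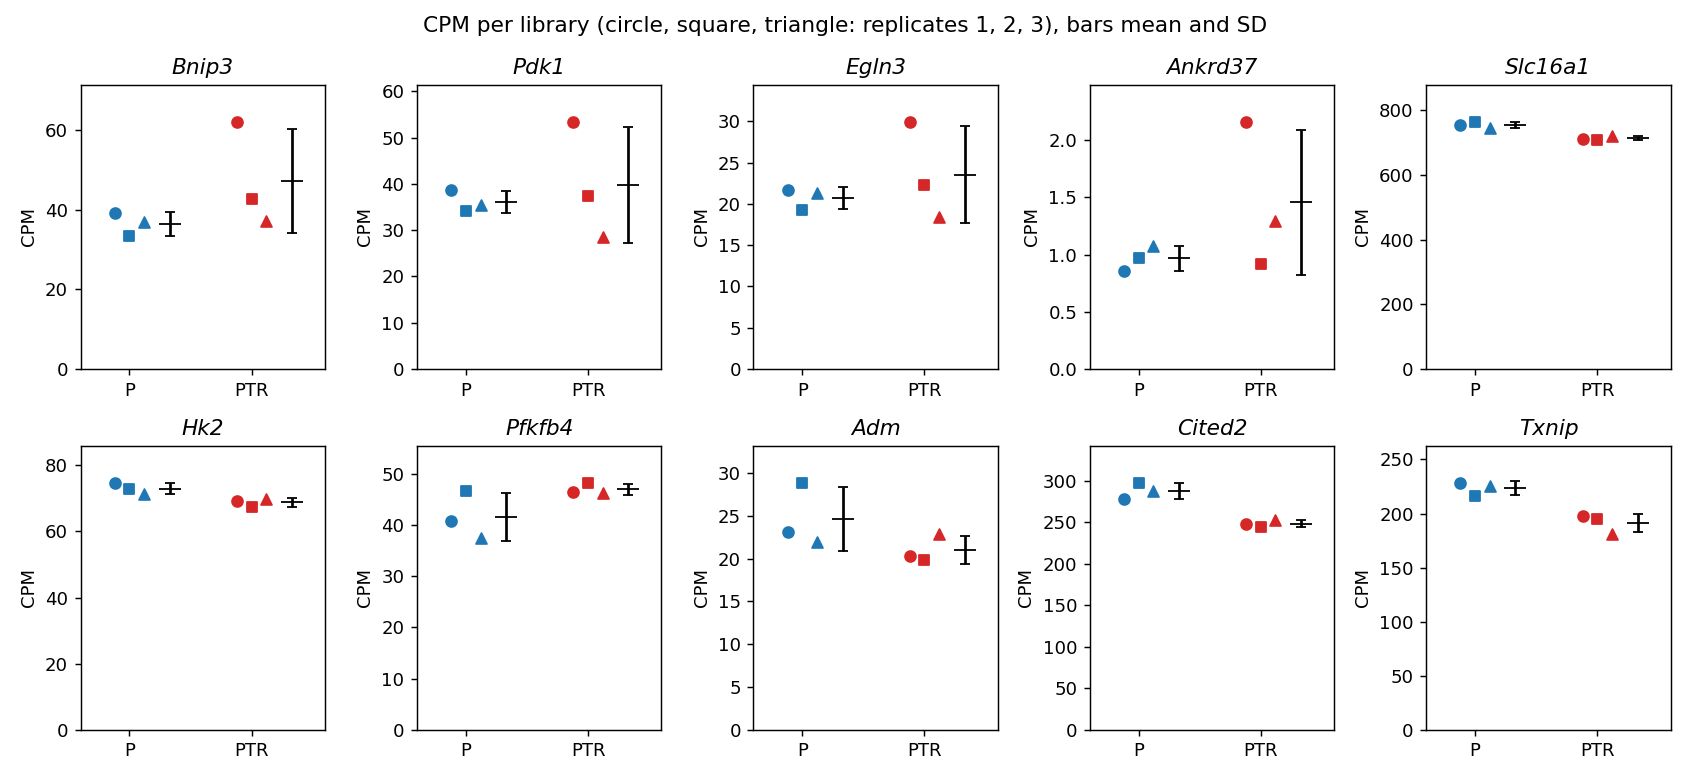
CPM in each library for 10 genes, with replicates 1, 2 and 3 as circle, square and triangle, P-VITRO in blue, PTR-VITRO in red, and the mean and SD of each group beside the points. Bnip3, Pdk1, Egln3 and Ankrd37 show 1 high PTR-VITRO library, while Slc16a1, Hk2, Cited2 and Txnip show groups that do not overlap.

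Hif1a, which encodes HIF-1α, had 299, 281 and 297 CPM in P-VITRO and 299, 296 and 276 CPM in PTR-VITRO (log2FC -0.01, SE 0.04, adjusted p 0.963). HIF-1α is controlled mainly at the level of protein stability, which RNA does not show. Epas1 was at 1.67 to 3.18 CPM and made up 0.790 ± 0.284% of the pair per exon length in P-VITRO and 0.777 ± 0.161% in PTR-VITRO. The prolyl hydroxylase gene Egln1 had a log2FC of 0.02 (adjusted p 0.939). Egln3, a hydroxylase gene that HIF itself induces, had 21.6, 19.2 and 21.3 CPM against 29.9, 22.2 and 18.4 CPM. It was high in PTR-VITRO replicate 1 and lowest in PTR-VITRO replicate 3. Its log2FC was 0.21 (SE 0.14, adjusted p 0.608), and -0.01 without replicate 1.

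Bnip3 (ENSMUSG00000078566.8, chr7:138890836-138909519), a HIF target that marks mitochondria for autophagy, had 39.3, 33.3 and 36.9 CPM in P-VITRO and 62.1, 42.6 and 37.3 CPM in PTR-VITRO. PTR-VITRO replicate 1 stood apart, replicate 2 lay just above the P-VITRO range, and replicate 3 lay within it. Its log2FC was 0.40 (SE 0.15, edgeR unadjusted p 0.0228, adjusted p 0.332) and, with PTR-VITRO replicate 1 left out, 0.14 (adjusted p 0.491). Copies held 10.7% of the family's counts, and the sum had a log2FC of 0.41 (adjusted p 0.341). Its relative Bnip3l had 125, 119 and 126 CPM against 135, 124 and 117 CPM (log2FC 0.03, adjusted p 0.889).

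Carbonic anhydrases 9 and 12 convert carbon dioxide to bicarbonate at the cell surface. Car9, among the genes most tightly tied to HIF-1α, was low at 10.3, 7.74 and 6.86 CPM in P-VITRO and 10.8, 6.85 and 7.02 CPM in PTR-VITRO. In both groups replicate 1 was the high library and the others were alike. Its log2FC was 0.02 (SE 0.19, adjusted p 0.986), with -0.25 when PTR-VITRO replicate 1 was left out and 0.19 when P-VITRO replicate 1 was. Car12 had 60.4, 58.0 and 68.0 CPM against 62.7, 54.1 and 52.8 CPM (log2FC -0.13, adjusted p 0.552, with -0.21 when PTR-VITRO replicate 1 was left out and -0.06 when P-VITRO replicate 3 was).

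Among the other HIF targets, 3 of 7 lay above 0 and 4 below. Adm, the vasodilator peptide adrenomedullin, had 23.1, 28.9 and 22.0 CPM in P-VITRO and 20.3, 19.8 and 22.9 CPM in PTR-VITRO. P-VITRO replicate 2 was high and the groups overlapped. The log2FC was -0.25 (SE 0.10, edgeR unadjusted p 0.0321, adjusted p 0.380), and with that library left out it was -0.11 (adjusted p 0.568). Ankrd37, a small HIF target of uncertain function, had 0.856, 0.968 and 1.08 CPM against 2.16, 0.918 and 1.29 CPM. PTR-VITRO replicate 1 had 1.96 times the mean of its other two replicates, the widest such gap of the 38 genes, at a level of few reads. Its log2FC was 0.62 (SE 0.32, adjusted p 0.505), and 0.16 without that library.

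The prolyl 4-hydroxylase subunits P4ha1 and P4ha2, which modify collagen, had log2FC values of 0.08 (adjusted p 0.715) and 0.15 (adjusted p 0.554). P4ha2 had 52.3, 50.3 and 49.6 CPM against 64.6, 54.9 and 47.8 CPM, so the highest and lowest libraries were both PTR-VITRO, and without replicate 1 of that group the log2FC was 0.03 for P4ha2 and -0.01 for P4ha1. The stress-induced gene Ndrg1 (log2FC -0.05, adjusted p 0.620), the mTORC1 inhibitor Ddit4 (-0.04, adjusted p 0.917) and the histone demethylase Kdm3a (-0.03, adjusted p 0.894) differed by less than 1.1-fold.

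Other genes of these pathways were taken from 5 lists, whose counts stand beside shares over all genes of 0.246% called, 11.4% at an unadjusted p below 0.05 and 48.5% above 0. Of 33 further glycolytic isozymes and pyruvate enzymes, 20 were tested, and 12 lay above and 8 below 0, with 0 called by edgeR and 3 at an unadjusted p below 0.05. Of 38 further HIF targets, 33 were tested, with 21 above and 12 below 0, 0 called and 5 at an unadjusted p below 0.05. Gbe1, the glycogen branching enzyme, had the smallest p among those higher, at 40.8, 40.5 and 40.4 CPM against 52.1, 45.2 and 43.6 CPM. Its groups did not overlap and PTR-VITRO replicate 1 was again the highest (log2FC 0.22, edgeR adjusted p 0.219, and 0.13 without that library). Gbe1 was called in 1 of the 9 other settings (adjusted p 0.0159). Vegfa, the angiogenic factor that HIF induces, had 331, 323 and 336 CPM against 325, 296 and 296 CPM (log2FC -0.11, adjusted p 0.350). Of the pyruvate enzymes, Dld, the shared dehydrogenase subunit of the mitochondrial ketoacid complexes, had 281, 285 and 287 CPM against 296, 308 and 316 CPM (log2FC 0.11, adjusted p 0.256). Adpgk, which encodes an ADP-dependent glucokinase, had the smallest p among those lower in that list (log2FC -0.04, adjusted p 0.738, with -0.02 when PTR-VITRO replicate 1 or P-VITRO replicate 2 was left out). In the pentose phosphate pathway, which branches from glucose 6-phosphate, 0 of 7 genes were called and 2 had an unadjusted p below 0.05. Its transketolase gene Tkt had a log2FC of 0.13 (adjusted p 0.299), with 0.09 when PTR-VITRO replicate 1 was left out, and Pgls, the lactonase gene, had -0.18 (adjusted p 0.340).

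The 14 further HIF pathway components held the only called gene of the 5 lists. Cited2 competes with HIF-1α for the coactivators CBP and p300 and is itself a HIF target. It had 278, 298 and 288 CPM in P-VITRO and 248, 244 and 252 CPM in PTR-VITRO. Every PTR-VITRO library lay below every P-VITRO library. Cited2 fell by 0.21 on the log2 scale (SE 0.04, edgeR adjusted p 0.0454), and its size was similar without PTR-VITRO replicate 1 (-0.21, adjusted p 0.0756). The call is a borderline one. It held without P-VITRO replicate 2 (adjusted p 0.0495) and in 6 of the 9 other settings, DESeq2 (0.00171) and limma-voom (0.0443) among them. It was lost in the other 5 fits that left out 1 library (adjusted p 0.0756 to 0.299), with TMM scaling (0.0594), without a scaling factor (0.0592) and after correction for GC content and length (0.183). Its log2FC lay between -0.23 and -0.19 in each of these fits. Of the other 11 components tested, 0 were called, among them the elongin subunit gene Eloc (log2FC 0.12, adjusted p 0.377, with 0.08 when P-VITRO replicate 2 was left out or after the GC and length correction).

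Txnip, an arrestin-like inhibitor of glucose uptake whose transcription rises with glucose 6-phosphate through MondoA, had 228, 217 and 226 CPM in P-VITRO and 198, 195 and 181 CPM in PTR-VITRO. The groups did not overlap. This gave a log2FC of -0.22 (SE 0.04, edgeR adjusted p 0.0600), which missed the threshold. It passed with DESeq2 (adjusted p 0.00126), with the replicate block (0.0487) and in 3 further settings, and ranged from 0.0341 to 0.270 when 1 library was left out. The other tested genes of its list, Mlx and Mlxip, were not called.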

How the data were processed

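The values deposited by the authors are unscaled RSEM estimated counts per gene. They sequenced stranded polyadenylated libraries of 6 samples. The submitters' processing notes name FastQC 0.11.5, STAR 2.6.0a, RSEM 1.3.1 and the genome GRCm38. The strand setting of RSEM is not given in the sources used here. The 38 genes, the further pathway lists and the tests were chosen with earlier results of these data known.

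Counts were rounded, filterByExpr dropped genes with low counts (at least 10 counts, total at least 15), and libraries were scaled by the upper quartile. PTR-VITRO was compared with P-VITRO by edgeR 4.0.16 (quasi-likelihood F test, R 4.3.3), without covariates and with Benjamini-Hochberg adjustment over all 14217 genes tested. A gene was called at an adjusted p below 0.05. CPM are scaled counts. The total count per library was 17757341 to 32426739, and the common biological coefficient of variation was 5.0%. Isozyme shares were compared by two-sided exact permutation. Genes named are the 38, and from each further list the called genes or else the gene with the smallest p in each direction. Markers were named as a check of the cell type.

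Identifiers were matched to symbols through an annotation of GRCm38, in which 50604 of the 53465 had the same version. Copies of genes were searched in transcripts with BLAST+ 2.17.0 at 95% identity over 200 bases. The alternatives were TMM or no scaling, no filter, a minimum of 10 counts in every sample, a replicate block, copies summed, a GC and length correction, DESeq2 1.42.0, limma-voom (limma 3.58.1) and leaving out each library in turn. The fit was tested on simulated data.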

Additional observations from a re-analysis of the deposited data

How the results depend on the processing

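Without a filter on low counts, 3 of the 38 genes were called (Bnip3 adjusted p 6.46e-09, Tpi1 0.0331, Adm 0.0351) and 13 had an unadjusted p below 0.05, beside 1.58% and 8.97% of all genes. In each of the other settings and leave-one-out fits 0 of the 38 were called, beside 0.0549% to 0.781% of all genes. DESeq2 gave no adjusted p for Ankrd37. After the GC and length correction 8 had an unadjusted p below 0.05 (10.4% of all genes), and 4 had groups that did not overlap (16.6%). Across the 6 fits that left out 1 library, 0 were called in each, the count at an unadjusted p below 0.05 ran from 2 (without replicate 3 of P-VITRO or replicate 2 of PTR-VITRO) to 9 (without PTR-VITRO replicate 3), beside 7.88% to 13.9% of all genes, the count without overlap from 3 to 10 (without P-VITRO replicate 1), beside 24.6% to 32.1% of all genes (26.0% without P-VITRO replicate 1), and the median log2 fold change from -0.0337 (without PTR-VITRO replicate 1) to 0.1005. The replicate block gave 0 calls (0.478% of all genes), 6 genes at an unadjusted p below 0.05 (13.5% of all genes) and a median of 0.0492. Over all genes tested, the correlations between samples with the same number were 0.1093, 0.095 and -0.0556. They do not decide whether such samples were handled together, which the labels do not say. With the replicate block 68 of all genes were called, against 35 without it. Over the fits, the median of all genes lay between -0.0109 and 0.0084. Of the comparisons of a gene with another setting, 327 were alike, 3 gained a call and 11 changed sign: Eno1 after the GC and length correction (0.0386), with copies summed (0.0117) and without scaling (0.0027); Epas1 after that correction (0.0164), with limma-voom (0.0593), without scaling (0.0079) and with the replicate block (0.0226); Bnip3l after the correction (-0.0012), Car9 with the block (-0.0223), Eno2 under the filter of 10 counts in every sample (-0.0008) and Hif1a without scaling (0.0042). The cause was not tested. With 1 library left out, 191 were alike and 37 changed sign. Those log2 fold changes ran from -0.0599 to 0.1019 for Gpi1, -0.0566 to 0.1634 for Pfkl, -0.0329 to 0.1398 for Pfkp, -0.0409 to 0.1407 for Aldoa, -0.1262 to 0.2069 for Aldoc, -0.1743 to 0.0774 for Pfkfb3, -0.0054 to 0.1381 for Gapdh, -0.0505 to 0.0253 for Eno1, -0.0345 to 0.0641 for Eno2, -0.0097 to 0.0971 for Pkm, -0.0741 to 0.0565 for Slc16a3, -0.1103 to 0.341 for Pdk1, -0.0345 to 0.03 for Hif1a, -0.2357 to 0.3432 for Epas1, -0.0616 to 0.0672 for Egln1, -0.0077 to 0.345 for Egln3, -0.0286 to 0.0747 for Bnip3l, -0.2549 to 0.1941 for Car9, -0.011 to 0.137 for P4ha1, -0.1313 to 0.0626 for Ddit4 and -0.0589 to 0.0131 for Kdm3a. The other genes kept their sign, at 0.0244 to 0.0676 for Slc2a1, 0.0681 to 0.1943 for Slc2a3, 0.0149 to 0.1311 for Hk1, -0.0986 to -0.0631 for Hk2, -0.2805 to -0.0104 for Pfkm, 0.0408 to 0.2003 for Tpi1, 0.1047 to 0.2681 for Pfkfb4, 0.0366 to 0.1218 for Pgk1, 0.0165 to 0.1072 for Pgam1, 0.0008 to 0.1107 for Ldha, -0.0889 to -0.0725 for Slc16a1, 0.1444 to 0.5337 for Bnip3, -0.2128 to -0.0575 for Car12, -0.0733 to -0.0192 for Ndrg1, 0.0269 to 0.2425 for P4ha2, -0.3209 to -0.1109 for Adm and 0.1581 to 0.8802 for Ankrd37. For the named genes outside the 38 they ran from 0.0927 to 0.1365 for Dld, -0.0517 to -0.0234 for Adpgk, -0.2329 to -0.1878 for Cited2, 0.0768 to 0.164 for Eloc, 0.1334 to 0.2685 for Gbe1, -0.1535 to -0.082 for Vegfa, 0.0866 to 0.1737 for Tkt, -0.2509 to -0.1383 for Pgls and -0.2461 to -0.184 for Txnip. Of the isozyme shares, the differences in percentage points that changed sign ran from -0.162 to 0.113 for Aldoc, -0.0322 to 0.0841 for Eno2 and -0.104 to 0.151 for Epas1, and those that kept their sign from -3.23 to -1.79 for Hk2, 0.767 to 3.05 for Pfkfb4, 1.21 to 2.32 for Pfkl, -3.66 to -1.86 for Pfkm, 0.524 to 1.82 for Pfkp, 0.0179 to 1.01 for Slc16a3 and 0.0282 to 0.202 for Slc2a3. Depth limits Ankrd37 and Epas1, which had the fewest reads, and 3 libraries per group allow no exact permutation p below 0.1.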
